A study of Sus scrofa with 22 samples.

Results

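The cells described here are the pig cells that the authors grouped as Oocyte, Zygote and 2C (2-cell), 20 of the 1647 single cells of the series. The series measured polyadenylated RNA by a modified Smart-seq2 protocol, in which each cell is lysed with its own barcode, in 20 libraries of embryonic cells from embryonic day 0 to day 14 and in 2 libraries of stem cells. The labels give no stage for a library or a cell. Cells were therefore assigned by fitting the authors' deposited mean of each group, by least squares, on the values of all cells and keeping those with a weight above 50% of the largest. Each of the 1647 cells came out in exactly 1 group. With this grouping 93.1%, 99.9% and 99.8% of the deposited means of Oocyte, Zygote and 2C were matched within 0.001 on the deposited log2 scale.

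There were 4 Oocyte cells, 6 Zygote cells and 10 2C cells. All Oocyte and Zygote cells and 8 of the 2C cells came from library P1, and 2C 9 and 2C 10 came from library P13. The breed, the maturation stage of the oocytes, the way of fertilisation, the number of females and whether any 2C cells shared an embryo are not given in the sources used here. No treatment or genetic change is named in the labels. Because Oocyte and Zygote each lie in 1 library, no comparison between stages could be tested: the values below are measurements of these cells, without p-values. Libraries P1 and P13 share 45 barcodes. Of the P13 2C cells 1 carried a barcode that also occurs in P1, but neither carried that of an Oocyte, Zygote or 2C cell there.

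A fully grown oocyte holds a large store of maternal RNA and is nearly silent in transcription. After fertilisation this RNA is translated, readenylated, deadenylated and degraded on a schedule, while the embryonic genome starts to be transcribed, which in the pig happens mainly around the 4-cell stage. Since the library protocol starts from poly(A) tails, a transcript that loses or gains its tail can move in such data without a change in its number of molecules, and these were not told apart here.

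Levels are given as CPM, the counts of a gene scaled to a fixed total of counts of pig genes, and cells of a stage were compared after their counts had been added together. A log2 ratio of pooled CPM was taken with 1 CPM added to both sides, and a gene entered a comparison with at least 10 CPM in the higher stage. A gene was called past the fold at 2-fold or more. It was called without overlap where every cell of one stage was above every cell of the other. Intervals are exact 95% Poisson intervals of the ratio and cover counting error alone: amplified reads are not independent molecules, and the spread between cells is not in them.

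Depth differed widely within a stage. Oocyte 1, 2, 3 and 4 had 1198303, 156090, 37636 and 1796832 counts, so that 93.9% of the pooled Oocyte counts came from Oocyte 1 and Oocyte 4. The zygotes had from 103407 to 380692 counts and the 2C cells from 294714 to 1195634. A single count was worth between 0.557 and 26.6 CPM in an oocyte, between 2.63 and 9.67 CPM in a zygote and between 0.836 and 3.39 CPM in a 2C cell, which sets the resolution for low transcripts.

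The share of External RNA Controls Consortium (ERCC) spike-in moved with stage and depth. It was 0.202%, 3.20%, 4.83% and 0.0919% in Oocyte 1 to 4. Zygotes had from 0.575% to 3.24%, and 2C cells from 0.242% to 0.733%. Mitochondrial transcripts took 0.976%, 11.98%, 12.2% and 1.05% of the counts in Oocyte 1 to 4, from 1.75% to 8.48% in zygotes and from 0.688% to 1.78% in 2C cells. Among oocytes and zygotes the deepest cells had the lowest spike-in share, whereas 2C 9 and 2C 10, among the deepest 2C cells, had 0.561% and 0.733%. The part of these shares in the differences below was not tested.

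**Figure D1:**
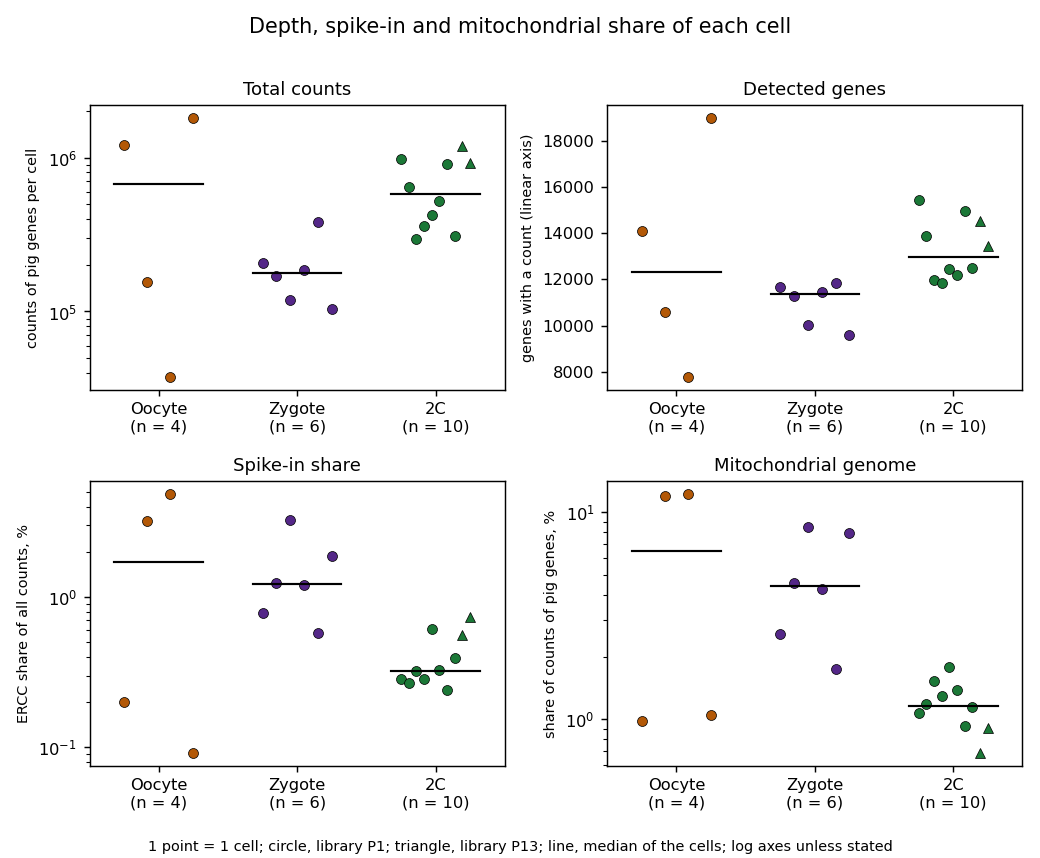
Total counts of pig genes, detected genes, ERCC share of all counts and mitochondrial share of counts, for each of the 4 Oocyte, 6 Zygote and 10 2C cells; circles are cells of library P1, triangles cells of P13, and the line is the median. Oocyte 1 and Oocyte 4 lie at 0.976% and 1.05% mitochondrial counts, beside the 2C cells, while Oocyte 2 and Oocyte 3 lie at 11.98% and 12.2%.

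At least 3 cells stood apart from the others of their stage. Oocyte 1 was more like the 2C cells, with Spearman correlations of 0.815 to 0.884 across 8151 genes, than like the other oocytes, with 0.492 to 0.631. Zygote 5 correlated at 0.782 to 0.871 with the 2C cells and at 0.713 to 0.807 with the other zygotes, and at 0.869 with Oocyte 1. The other 5 zygotes correlated with each other at 0.760 to 0.896 and with the 2C cells at 0.587 to 0.724. Oocyte 4 had 18962 detected genes, and 10364 when thinned to 37000 counts, against 7187 to 7857 for the other oocytes. The 8 2C cells of P1 were alike at 0.902 to 0.961. Those of P13 correlated with them at 0.828 to 0.884 and with each other at 0.939. Genes within a cell are not independent replicates, and these values share library and depth. Labels are kept as the authors gave them. Log2 ratios of named genes that moved by over 1.5 times without Oocyte 1, Oocyte 4 or Zygote 5 are given beside them.

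**Figure D2:**
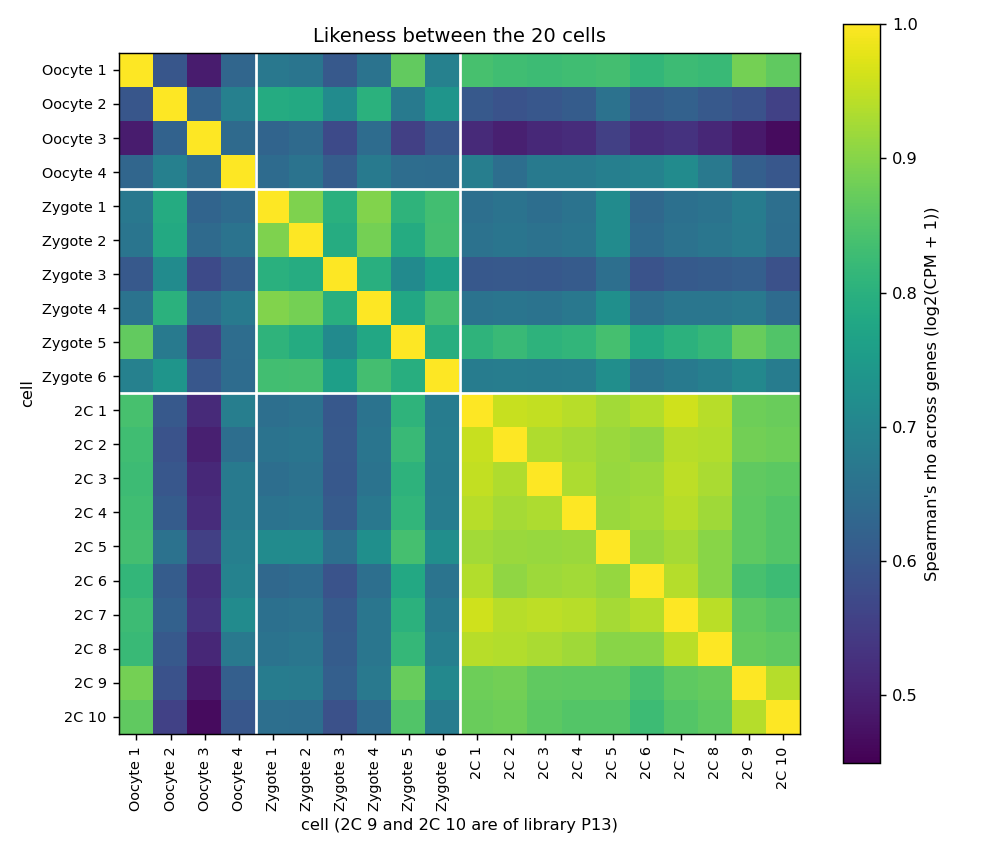
Spearman correlation between each pair of the 20 cells across genes on log2(CPM + 1), in the order Oocyte, Zygote, 2C, with white lines between stages. Oocyte 1 and Zygote 5 share the bright block of the 2C cells (0.815 to 0.884 and 0.782 to 0.871), whereas the 4 oocytes reach at most 0.689 with each other.

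The defining transcripts of oocytes were present throughout. All 9 oocyte markers had counts in each stage, and their summed level ran from 1838 to 7732 CPM in oocytes, from 2658 to 6508 CPM in zygotes and from 1454 to 2798 CPM in 2C cells. ZP3 encodes a zona pellucida glycoprotein, BTG4 an adaptor of the deadenylase complex, and MOS the kinase that holds the oocyte in meiotic arrest. Their genes lie on chromosome 3 (9934760 to 9944924), chromosome 9 (39253116 to 39281327) and chromosome 4 (75739402 to 75741076) of the RefSeq annotation of Sscrofa11.1. Of 13 measured markers of the cumulus and granulosa cells that surround an oocyte, LUM, HAS2, PTX3, INHA, TNFAIP6 and CYP11A1 had no count in any oocyte. The others had counts in oocytes, among them FSHR, CYP19A1 and GJA1, which had none in zygotes. The summed level of these 13 ran from 33.4 to 186 CPM in oocytes, from 36.8 to 245 CPM in zygotes and from 24.9 to 125 CPM in 2C cells. Of 11 measured sperm markers ODF1, AKAP4 and TNP2 had no count in any of the 20 cells, and their sum reached 104 CPM in oocytes, 103 CPM in zygotes and 109 CPM in 2C cells. In the 2C cells of P13 the sum of 8 trophectoderm markers was 207 and 190 CPM, against 15.6 to 65.1 CPM in those of P1. KRT8 alone had 161 and 137 CPM of it in 2C 9 and 2C 10. The cumulus and granulosa sum was 125 and 102 CPM in these cells, against 24.9 to 62.1 CPM in the 2C cells of P1, the blood sum 18.4 and 20.6 CPM, against 0 to 6.51 CPM, and the hypoblast sum 385 and 336 CPM, against 143 to 267 CPM. The part of these transcripts in the differences of the P13 cells was not tested. The trophectoderm sum was 21.0 to 150 CPM in zygotes.

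The 15 most abundant named transcripts of the pooled oocytes ran from 634 to 1953 CPM there. DNMT1, the maintenance DNA methyltransferase, stood at 1953 CPM in oocytes, 2647 CPM in zygotes and 2357 CPM in 2C cells. PCNA, the sliding clamp of DNA polymerase, had 1012, 1366 and 1259 CPM in the same order of stages, and WEE2, the oocyte kinase that inhibits CDK1, had 726, 1161 and 910 CPM. The translation initiation factor EIF5B, the nuclear import factor KPNA7 and the DNA methylation reader UHRF2 were also among the 15. Without Oocyte 4 the log2 ratio of zygotes over oocytes was -0.03 for DNMT1 and -0.01 for WEE2, against 0.44 and 0.68 with it, and 1.42 for WEE2 without Oocyte 1. For DNMT1 and WEE2 the ranges of the cells overlapped at every step. Of those 15 genes, UBB, which encodes ubiquitin, had the lowest pooled level in 2C cells relative to oocytes, with 513 CPM in 2C cells, against 930 CPM in oocytes.

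How the levels are scaled decides many directions. All tested genes had a median log2 ratio of -0.63 for Zygote against Oocyte, 0.26 for 2C against Zygote and -0.30 for 2C against Oocyte. TMM factors moved the medians of the same genes by 0.46, -0.14 and 0.33, and scaling to the spike-in moved them by -1.72, 1.46 and -0.28. On the spike-in scale 10929 genes were past the fold lower in zygotes than in oocytes and 6 higher. From zygotes to 2C cells 7732 were past the fold higher and 67 lower. Oocyte 1 to 4 had 495, 30.2, 19.7 and 1087 pig counts per spike-in count, and zygotes 29.9 to 173. Oocyte 2 and Oocyte 3 thus lay near or below the lowest zygote, and the pooled drop from oocytes to zygotes rests on Oocyte 1 and Oocyte 4. In that comparison 12 genes were without overlap on the spike-in scale. The sources used here do not say whether each cell received the same amount of spike-in. Levels below are shares of the RNA counted, and a list is read against the median of all genes.

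In the comparison of zygotes with oocytes, of 11356 genes entered, 685 (6.03%) were past the fold higher in zygotes and 4256 (37.5%) lower, while 167 (1.47%) were higher without overlap and 146 (1.29%) lower without overlap. In either direction 43.5% were past the fold and 2.76% were without overlap. The excess of lower genes depended on Oocyte 4, the deepest cell, without which 1550 genes were past the fold higher and 2224 lower. Without Oocyte 1, 941 were higher and 5129 lower. With TMM factors the split was 1637 higher and 2595 lower, with a median of all genes of -0.17.

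The genes highest in zygotes without overlap included regulators of chromatin, RNA processing and protein turnover. STK11, the kinase that activates AMPK, had from 292 to 923 CPM in zygotes, with a median of 702 CPM, against 158, 243, 53.1 and 61.2 CPM in Oocyte 1 to 4. Its log2 ratio of zygotes over oocytes was 2.38. UBE2S, which builds ubiquitin chains with the anaphase-promoting complex, had from 355 to 696 CPM in zygotes, against 72.9 to 237 CPM in oocytes, a log2 ratio of 2.11 (1.93 to 2.31). In both cases the lowest zygote was above the highest oocyte. Without Oocyte 4 the ratio of STK11 was 1.75.

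CHAF1A, the large subunit of the histone chaperone CAF-1, had from 372 to 1102 CPM in zygotes, against 205, 103, 186 and 124 CPM in Oocyte 1 to 4. Its log2 ratio was 1.70 (1.53 to 1.88), and -0.10 on the spike-in scale. Among the others named for size were the splicing proteins RNPS1 (1.80) and SRRM2 (1.55), the nucleosome remodeler CHD4 (1.55), the actin-binding CNN2 (1.93), the ceramide kinase CERK (1.69) and TRAF4 (1.93), of the tumour necrosis factor receptor adaptors. R3HDM4 (2.15) and GRIP2 (1.56) were also in this set. On the spike-in scale CERK, GRIP2, CHD4 and SRRM2 had ratios of -0.10, -0.20, -0.24 and -0.24. Without Oocyte 1 the ratios of R3HDM4, TRAF4 and GRIP2 were 2.97, 2.56 and 2.27, and R3HDM4 had 1.51 without Oocyte 4.

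The genes lowest in zygotes without overlap were mostly transcripts of low level. CHN1, a GTPase-activating protein for Rac, had no count in 4 of 6 zygotes and 5 counts over the stage, against 10.8, 25.6, 53.1 and 107 CPM in Oocyte 1 to 4, a log2 ratio of -3.67 (-5.59 to -2.71). Without Oocyte 4 that ratio was -1.47. LRP1B, a receptor of the low-density lipoprotein receptor family, had from 0 to 29.0 CPM in zygotes, against 32.03 to 103 CPM in oocytes (-2.96). DNAH7, an axonemal dynein, had from 5.25 to 48.4 CPM in zygotes, against 57.7 to 140 CPM in oocytes (-2.72). The remaining members of this set were TMEM108 (-3.34), the sialyltransferase ST6GALNAC3 (-3.20), the lectin MBL2 (-2.78), MPPED1 (-2.65), the protease CORIN (-2.63), ZNF280D (-2.52), ATXN7L1 (-2.44), the adhesion molecule PECAM1 (-2.43) and ZNF292 (-2.31). Since 1 count is worth up to 9.67 CPM in a zygote, the zeros set wide limits. Without Oocyte 4 the ratios of ST6GALNAC3, MPPED1 and CORIN were -2.20, -1.54 and -1.84, and without Zygote 5 those of LRP1B and PECAM1 were -3.68 and -3.43.

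MOS was lower in every zygote than in every oocyte. It had from 127 to 221 CPM in zygotes, with a median of 182 CPM, against 252, 577, 399 and 229 CPM in Oocyte 1 to 4. The pooled log2 ratio was -0.45 (-0.67 to -0.23), and the highest zygote lay close to the lowest oocyte. With TMM factors and DESeq2 size factors the ratio of MOS was 0.02 and 0.10, while cells weighed equally gave -1.01. BTG4 had from 92.1 to 261 CPM in zygotes, against 219, 295, 239 and 318 CPM in Oocyte 1 to 4, so the stages overlapped (-0.72). OOSP3, an oocyte-secreted protein gene, had from 67.7 to 135 CPM in zygotes, against 212, 263, 399 and 262 CPM in oocytes, a log2 ratio of -1.30 (-1.60 to -1.02), without overlap.

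The zona and growth factor transcripts showed no such step. ZP2, ZP3 and ZP4, which encode the zona pellucida coat, had pooled log2 ratios of 0.83, 0.68 and 0.83, but 0.17, 0.14 and 0.11 when each cell weighed the same. GDF9 and BMP15, the growth factors by which the oocyte acts on its follicle, had 1.03 and 1.00 pooled, and 0.46 and 0.25 with equal weights. GDF9 had -0.76 on the spike-in scale. Zygotes and oocytes overlapped for each of these 5 genes. For ZP2 the lowest zygote was Zygote 5 at 454 CPM and the lowest oocyte was Oocyte 1 at 206 CPM.

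Chromatin and reprogramming genes gave single members without overlap rather than whole lists. UHRF1, which brings DNMT1 to hemimethylated DNA, had from 280 to 456 CPM in zygotes, against 228, 186, 106 and 106 CPM in oocytes, a log2 ratio of 1.30 (1.11 to 1.49), and -0.49 on the spike-in scale. SUZ12, a core subunit of Polycomb complex 2, was lower in zygotes (-1.83). Of 28 genes of histone variants and chromatin entered, 4 were past the fold higher and 6 lower, beside 6.03% and 37.5% of all genes. The list median was 0.11 beside -0.63 for all genes. Of 11 genes of DNA methylation and reprogramming, 1 was past the fold in each direction, with a median of 0.39.

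POU5F1, the pluripotency factor OCT4, had from 268 to 463 CPM in zygotes, against 204, 211, 239 and 98.5 CPM in Oocyte 1 to 4. Its log2 ratio was 1.21 (1.02 to 1.41), and -0.58 on the spike-in scale. It was the only one of 18 entered genes of the genome activation list without overlap, although 7 were past the fold higher and 4 lower. Of all genes 6.03% were past the fold higher and 37.5% lower, while 1.47% were higher and 1.29% lower without overlap. NPM2, the oocyte nucleoplasmin that decondenses sperm chromatin, had from 228 to 307 CPM in zygotes, against 147 to 213 CPM in oocytes (0.63). The RNA-binding genes PABPC4 (0.81) and STAU1 (1.05), the ubiquitin ligase RNF114 (1.08), the elongation genes CDK9 (1.29) and SUPT5H (0.70), the polymerase subunit POLR2C (1.07), the splicing subunit SF3B2 (0.74) and the mitochondrial chaperone HSPA9 (1.10) were likewise higher without overlap. On the spike-in scale STAU1, RNF114, CDK9, POLR2C and HSPA9, past the fold on the main scale, had ratios of -0.74, -0.71, -0.50, -0.72 and -0.69, and NPM2, PABPC4, SUPT5H and SF3B2 had -1.15, -0.97, -1.09 and -1.04. Without Oocyte 1 the ratios of CDK9, POLR2C and RNF114 were 1.88, 1.79 and 1.70, and without Oocyte 4 those of POLR2C and RNF114 were 0.40 and 0.49.

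Most ribosomal and mitochondrial genes were past the fold in the pool, but none was separate between cells. Of 22 cytosolic ribosomal protein genes, 21 were past the fold higher in zygotes and none was without overlap. Over all genes 6.03% were past the fold higher and 1.47% higher without overlap. The list median was 1.24 pooled, 0.71 with equal cell weights and -0.55 on the spike-in scale. The 13 protein genes of the mitochondrial genome had a pooled median of 1.17 with 12 past the fold, but a median of -0.33 with equal weights (COX1 had 25748 and 19210 CPM in the shallow Oocyte 2 and 3, and 1816 and 1690 CPM in Oocyte 1 and 4). Of 17 nuclear genes of oxidative phosphorylation 5 were past the fold higher, and of 21 translation factors 7, with none without overlap in either list.

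In the comparison of 2C cells with zygotes, of 10135 genes entered, 2420 (23.9%) were past the fold higher in 2C cells and 1479 (14.6%) lower. Without overlap, 660 (6.51%) were higher and 381 (3.76%) lower. In either direction 38.5% were past the fold and 10.3% were without overlap. Within library P1 alone, 2243 were past the fold higher and 1837 lower, and 972 and 649 were higher and lower without overlap, from 8 cells. Without Zygote 5, 1169 were higher and 874 lower without overlap. TMM factors gave 2031 higher and 1696 lower, and DESeq2 size factors 1910 and 1841. This comparison uses the same zygotes as the one before, so a gene low or high in those 6 cells is so on one side of both.

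The zona pellucida transcripts were lower in 2C cells. ZP3 had 170, 884, 877 and 437 CPM in Oocyte 1 to 4, from 252 to 797 CPM in zygotes with a median of 732 CPM, and from 107 to 171 CPM in 2C cells with a median of 120 CPM. Every 2C cell was below every zygote. The log2 ratio of 2C over zygotes was -2.17 (-2.33 to -2.03), -2.27 within P1 and -0.66 on the spike-in scale. ZP2 had from 185 to 367 CPM in 2C cells, against 454 to 1364 CPM in zygotes (-1.89), and ZP4 from 176 to 324 CPM, against 384 to 1189 CPM (-1.92).

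BMP15 had from 316 to 777 CPM in 2C cells, against 788 to 1795 CPM in zygotes, without overlap, with a log2 ratio of -1.11 (-1.20 to -1.02) that was 0.41 on the spike-in scale. GDF9 had from 164 to 427 CPM in 2C cells, against 384 to 1076 CPM in zygotes (-1.48, and 0.04 on the spike-in scale). Only Zygote 5, at 384 CPM, lay within the range of the 2C cells. Of 9 entered genes of the zona and secreted list, 6 were past the fold lower and 2 higher, beside 14.6% and 23.9% of all genes. The median was -1.48 beside 0.26 for all genes.

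OOSP3 was higher in 2C cells, with from 143 to 400 CPM in 2C cells, against 67.7 to 135 CPM in zygotes, a log2 ratio of 1.58 (1.31 to 1.87), without overlap. The 2C cells of P13 were its lowest, at 196 and 143 CPM. BTG4 had from 188 to 596 CPM in 2C cells, against 92.1 to 261 CPM in zygotes. Its log2 ratio was 1.15 (0.94 to 1.37), or 1.44 within P1 and 0.22 for the 2C cells of P13. MOS had from 181 to 391 CPM in 2C cells, against 127 to 221 CPM in zygotes (0.63), and the overlap was made by 2C 9, at 181 CPM, and by the zygotes above it. Both MOS and BTG4 were thus lowest in the zygotes in pooled level, whereas 2C against Oocyte gave 0.19 for MOS and 0.43 for BTG4, with overlapping cells, and -0.37 and -0.50 for the P13 cells alone.

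**Figure D3:**
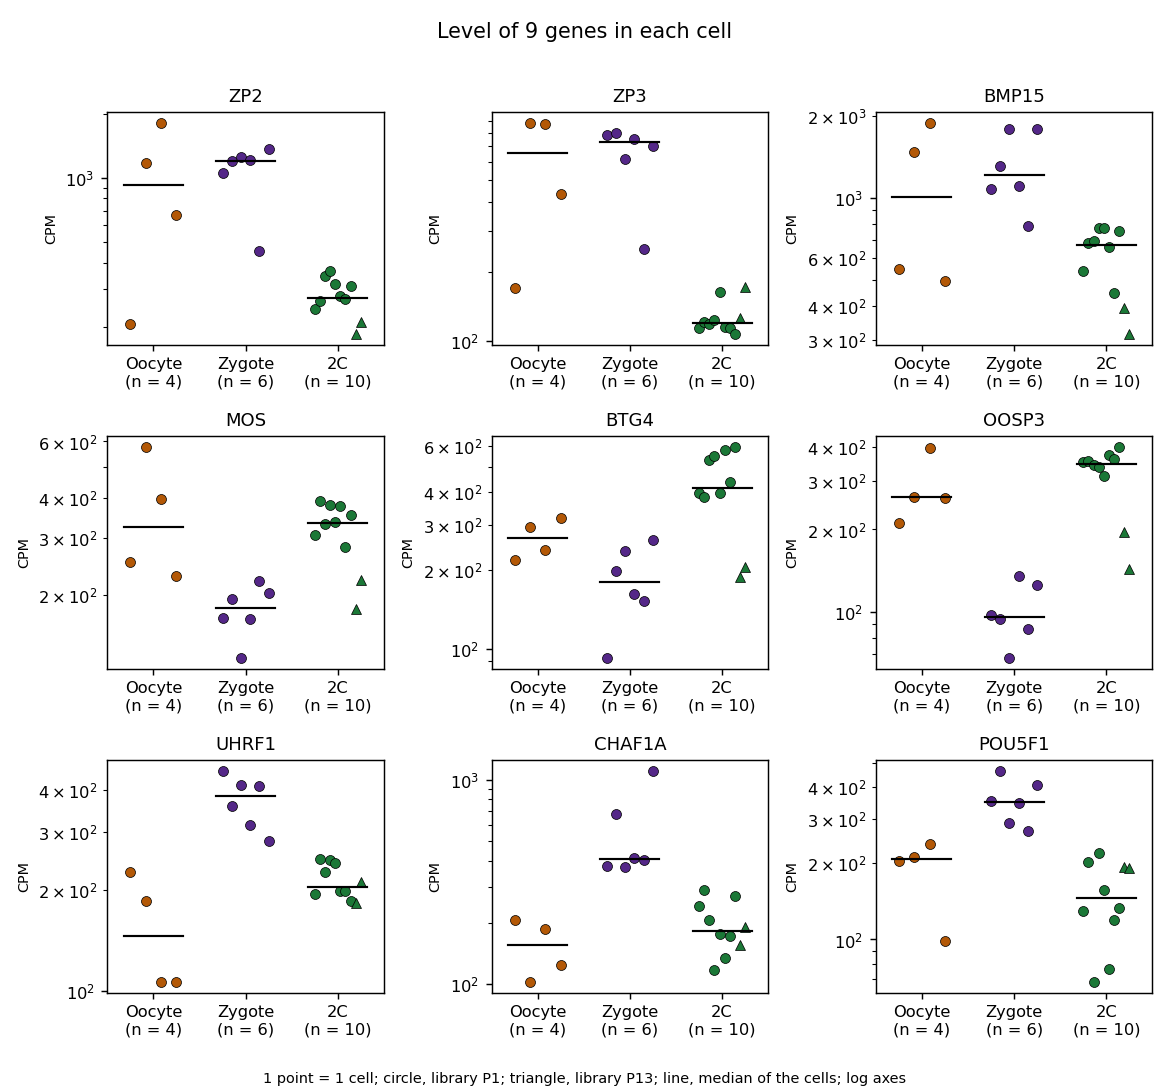
Level in CPM (log axes) of 9 genes in each Oocyte, Zygote and 2C cell, with circles for library P1, triangles for P13 and a line at the median. ZP2, ZP3 and BMP15 are lower in all 10 2C cells than in all 6 zygotes, OOSP3 is lowest in the zygotes, and UHRF1, CHAF1A and POU5F1 are highest there.

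Of 16 entered genes of meiotic arrest and activation, 3 were past the fold higher in 2C cells and none lower. Both shares were below those of all genes, 23.9% higher and 14.6% lower. The list median was 0.09 beside 0.26. CDC25C, the phosphatase that activates CDK1, had 178, 128, 53.1 and 141 CPM in oocytes, from 36.8 to 67.7 CPM in zygotes and from 157 to 374 CPM in 2C cells. Its log2 ratio of 2C over zygotes was 2.43 (2.07 to 2.88). CAMK2G, the calcium-dependent kinase of egg activation, had from 124 to 229 CPM in 2C cells, against 8.46 to 81.4 CPM in zygotes (2.15). The upper value among zygotes was that of Zygote 5, without which the ratio was 2.95. WEE2 differed little, at -0.35, with overlapping cells.

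Of 12 entered genes of the oocyte factor list, 2 were past the fold lower in 2C cells and none higher. Of all genes 14.6% were lower and 23.9% higher. The list median was 0.25 beside 0.26 for all genes. The 2 lower genes were ZAR1 and ZAR1L, which bind and store maternal RNA. Both were without overlap, as were 3.76% of all genes in that direction. ZAR1 had from 37.3 to 86.8 CPM in 2C cells, against 150 to 567.8 CPM in zygotes (-2.38), and ZAR1L from 188 to 377 CPM, against 567 to 849 CPM (-1.42, and 0.10 on the spike-in scale). OOEP, a component of the subcortical maternal complex, had from 111 to 217 CPM in 2C cells, against 415 to 638 CPM in zygotes (-1.65). Of 5 measured genes of that complex 1 was past the fold in each direction, beside 23.9% of all genes higher and 14.6% lower. The median of the complex was 0.39 beside 0.26 for all genes.

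Of 35 entered deadenylation and decay genes, 7 were past the fold higher in 2C cells and none lower. Both shares were below those of all genes, 23.9% higher and 14.6% lower. The list median was 0.45 beside 0.26. PARN, the poly(A)-specific ribonuclease, had from 129 to 189 CPM in 2C cells, against 53.3 to 117 CPM in zygotes (0.89). XRN1, the cytoplasmic exonuclease, had from 117 to 182 CPM, against 27.0 to 97.2 CPM (1.33), and TUT7, which adds uridines to short tails, from 132 to 217 CPM, against 29.3 to 113 CPM (1.29). These 3 had no overlap between cells, and without Zygote 5 the ratio of XRN1 was 1.93. CNOT6L, a catalytic deadenylase of the CCR4-NOT complex, overlapped (0.68).

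Among 23 genes of cytoplasmic polyadenylation and storage, 4 were past the fold higher and 2 lower, beside 23.9% and 14.6% of all genes. The median of 0.26 equalled that of all genes. PABPN1L, the poly(A)-binding protein of oocytes, had no count in the 6 zygotes and from 3.25 to 27.6 CPM in 2C cells. Against a floor of 3 counts over the zygotes its pooled level in 2C cells was at least 4.21-fold higher. It had 9 counts in the oocytes. IGF2BP1, an RNA-binding protein, had from 0 to 16.3 CPM in 2C cells, against 21.0 to 76.2 CPM in zygotes (-3.02).

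UHRF1 and CHAF1A, described above as high in zygotes, were lower in 2C cells. They were named from these same zygotes, which favours a lower level in the next stage. UHRF1 had from 183 to 248 CPM in 2C cells, against 280 to 456 CPM in zygotes (-0.88, and 0.63 on the spike-in scale). CHAF1A had from 118 to 290 CPM in 2C cells, against 372 to 1102 CPM in zygotes (-1.36, and 0.15 on the spike-in scale). For both genes every 2C cell was below every zygote.

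TRIM28, a corepressor that protects imprints, had from 54.3 to 136 CPM in 2C cells, against 157 to 310 CPM in zygotes (-1.01, and 0.50 on the spike-in scale). The Polycomb subunit EED (-2.25) and the H3K4 demethylase KDM5B (-2.19) were also lower without overlap. The dioxygenases that oxidise 5-methylcytosine differed in direction. TET2 had from 32.6 to 96.5 CPM in 2C cells, against 0 to 16.2 CPM in zygotes (2.64, without overlap), while TET3, the form stored by the egg, had from 65.2 to 176 CPM in 2C cells, against 155 to 389 CPM in zygotes (-1.02, and 0.49 on the spike-in scale), with overlap. DNMT1 was near level (-0.17). Of 27 genes of histone variants and chromatin 5 were past the fold in each direction, beside 23.9% of all genes higher and 14.6% lower.

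Of 18 entered genes of the genome activation list 9 were past the fold lower in 2C cells and 3 higher, beside 14.6% and 23.9% of all genes. Without overlap 6 were lower, beside 3.76% of all genes. The list median was -0.99 beside 0.26 for all genes. On the spike-in scale 6 were past the fold higher and 2 lower, with a median of 0.51 beside 1.81. POU5F1 had from 67.9 to 219 CPM in 2C cells, against 268 to 463 CPM in zygotes (-1.12, and 0.40 on the spike-in scale). KLF4 (-1.87), MYC (-2.98) and MYCN (-2.23), transcription factors of pluripotent and dividing cells, were lower without overlap, and KLF17 (-2.59) was lower with overlap.

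HSPA8, a constitutive heat shock chaperone, had 190, 1128, 1249 and 369 CPM in Oocyte 1 to 4, from 389 to 1439 CPM in zygotes, and from 171 to 298 CPM in 2C cells, a log2 ratio of -2.17 (-2.29 to -2.06) of 2C over zygotes. No gene with at most 3 counts over the oocytes and zygotes reached 10 CPM with counts in every 2C cell. Over the 2C cells 75 genes had at most 3 counts after at least 10 pooled CPM in oocytes or zygotes. That rule did not ask for counts in every cell, so a single deep cell such as Oocyte 4 could supply the level. The rules differ, so these numbers of genes cannot be set against each other.

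The transcripts of the cytosolic ribosome were lower in 2C cells as a whole list. All 22 measured ribosomal protein genes were past the fold lower, and 13 were without overlap, where 14.6% and 3.76% of all genes were. The list median was -1.92 beside 0.26 for all genes, and on the spike-in scale -0.41 beside 1.81. Summed over the list, the level was 2909 to 10878 CPM in oocytes, 4345 to 13163 CPM in zygotes and 2084 to 3471 CPM in 2C cells. Within P1 19 genes were without overlap, and without Zygote 5 all 22 were. Over all genes those lower without overlap were 381 with all cells, 649 within P1 and 874 without Zygote 5. Such counts go up by construction with fewer cells, the more so without the lowest zygote.

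RPS2 had from 86.3 to 184 CPM in 2C cells, against 292 to 948 CPM in zygotes (-2.25). RPL3 was lower by less in the P13 cells, with -0.81 there and -2.37 within P1. In this sum Oocyte 1 was the lowest oocyte and Zygote 5 the lowest zygote, the cells with the least mitochondrial RNA of their stages. Ribosomal protein genes have many near-identical copies in the genome, and how reads shared between copies were counted is unknown from these sources.

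Mitochondrial transcripts and nuclear respiratory genes were lower in 2C cells as well. All 13 mitochondrial protein genes were past the fold lower in 2C cells and 6 were without overlap, where 14.6% and 3.76% of all genes were. Their median was -1.84 beside 0.26 for all genes, and -0.32 beside 1.81 on the spike-in scale. COX1, a catalytic subunit of complex IV, had from 1273 to 2392 CPM in 2C cells, against 2438 to 13315 CPM in zygotes (-1.89), and CYTB, of complex III, had a ratio of -2.25. Of 17 nuclear genes of oxidative phosphorylation, 12 were past the fold lower and none higher, beside 14.6% and 23.9% of all genes. Their median was -1.36, and 0.13 on the spike-in scale. COX4I1, another complex IV subunit, had from 54.3 to 113 CPM in 2C cells, against 208 to 577 CPM in zygotes (-2.13).

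**Figure D4:**
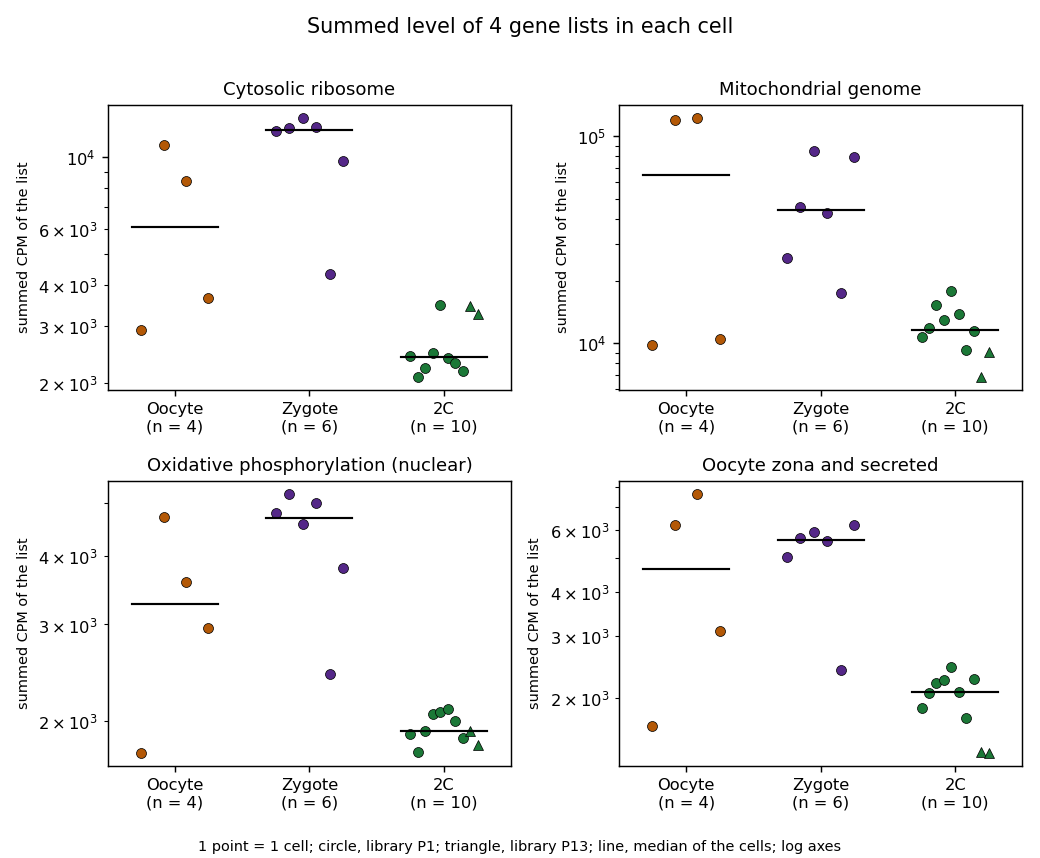
Summed CPM (log axes) of the lists cytosolic ribosome, mitochondrial genome, nuclear oxidative phosphorylation, and oocyte zona and secreted proteins, in each cell, with circles for P1, triangles for P13 and a line at the median. The 10 2C cells lie between 2084 and 3471 CPM for the ribosome list and the 6 zygotes between 4345 and 13163 CPM, with Zygote 5 the lowest zygote and Oocyte 1 the lowest oocyte.

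In other housekeeping lists some members were lower on the main scale and others past the fold higher on the spike-in scale. Over all genes 14.6% were past the fold lower and 23.9% higher on the main scale. Of 21 translation factors 9 were past the fold lower and none higher in 2C cells (median -0.86), among them EIF3A (-2.16) and EIF4A1 (-1.47, and 0.05 on the spike-in scale). Of 19 splicing genes 9 were lower and 2 higher (median -0.9999), with SNRPB (-1.63) and U2AF1 (-1.24, and 0.26 on the spike-in scale) without overlap. Of 18 genes of heat shock and oxidative stress 5 were lower and 1 higher (median -0.58). Scaled to the spike-in, the 3 lists had 7, 7 and 8 genes past the fold higher and none lower, with medians of 0.66, 0.47 and 0.92 beside 1.81 for all genes. The thioredoxin reductase TXNRD1 was higher without overlap, with from 143 to 228 CPM in 2C cells, against 47.3 to 99.6 CPM in zygotes (1.42), whereas the peroxiredoxin PRDX4 (-2.07) was lower, as were the chaperones HSPD1 (-1.50, and 0.01 on the spike-in scale) and HSPA9 (-1.03, and 0.48).

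The polymerase and protein turnover lists held members in both directions, beside 23.9% of all genes higher and 14.6% lower. Of 24 genes of RNA polymerase II and its mediators, 4 were past the fold higher in 2C cells and 7 lower (median 0.01 beside 0.26), with GTF2A1 (1.40), of the initiation factor TFIIA, higher without overlap and the second largest polymerase subunit POLR2B (-2.20) lower. Of 25 ubiquitin and proteasome genes, 2 were higher and 3 lower (median -0.33). DTL, which targets proteins on replicating DNA for destruction, had from 49.8 to 121 CPM in 2C cells, against 16.2 to 38.7 CPM in zygotes (1.956), and FBXW11, a substrate receptor of ubiquitin ligases, had a ratio of 1.26. UBE2S, high in zygotes, had from 95.8 to 233 CPM in 2C cells, against 355 to 696 CPM in zygotes (-1.66), and UCHL1 (-1.10, and 0.41 on the spike-in scale) was lower without overlap.

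In metabolism, CPT1A, which brings fatty acids into mitochondria, had from 1.08 to 32.9 CPM in 2C cells, against 55.2 to 222 CPM in zygotes (-3.13). PLIN2, a coat protein of lipid droplets, had from 39.3 to 118 CPM in 2C cells, against 186 to 357 CPM in zygotes (-1.47, and 0.04 on the spike-in scale). LDHA, lactate dehydrogenase, was higher, with from 129 to 195 CPM in 2C cells, against 55.2 to 127 CPM in zygotes (0.99). Of the 21 entered glycolysis and lipid genes 6 were past the fold lower and none higher, beside 14.6% and 23.9% of all genes. TUBA1B, an alpha-tubulin, was lower without overlap (-1.71).

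Named for size among the genes higher in 2C cells without overlap were TDRD5, FAHD1, ZNF281, TYMS, LRP1B, SNAP91, MTCL1, TMEM108, OSBPL6, LHX1, CALML4 and NAV2, with log2 ratios from 2.93 to 3.75. TDRD5, a Tudor domain protein of germ cells, had 39.2, 0, 26.6 and 79.0 CPM in Oocyte 1 to 4, from 0 to 7.88 CPM in zygotes and from 30.5 to 113 CPM in 2C cells. LHX1, a LIM homeobox factor, had 80.1, 0, 26.6 and 66.2 CPM in oocytes, from 0 to 29.3 CPM in zygotes and from 37.5 to 167 CPM in 2C cells. TYMS, the thymidylate synthase, had from 33.6 to 123 CPM in 2C cells, against 2.63 to 11.7 CPM in zygotes (3.32). For TDRD5 and LHX1 the 2 deep oocytes had levels in or near the 2C range, so these genes were low in the zygotes rather than absent before the 2C stage. Without Zygote 5 the ratios of LRP1B, SNAP91 and CALML4 were 4.01, 4.20 and 3.61. LRP1B and TMEM108 are also among the genes named as lower in zygotes than in oocytes, from the same zygotes.

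Those lower in 2C cells included transporters and the small GTPase gene RAB13. The creatine transporter SLC6A8 had from 11.7 to 77.4 CPM in 2C cells, against 126 to 436 CPM in zygotes (-3.03), and the phosphate transporter SLC34A2 from 11.9 to 115 CPM, against 171 to 681 CPM (-2.97). RAB3IL1 (-3.32), which activates Rab proteins, the serine dehydratase SDS (-2.96), the mitochondrial import chaperone TIMM8A (-2.87), S100A14 (-2.80), RAB13 (-2.75), PLP2 (-2.73), the ribosome assembly methyltransferase EMG1 (-2.70) and BTG3 (-2.59) followed. RAB3IL1 and SDS were -6.64 and -6.82 against the same zygotes in the P13 cells alone, and -2.80 and -2.43 within P1. RAB13 was -4.04 within P1.

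The 381 genes lower without overlap were short in the genome. Their median span from start to end in the RefSeq table was 12.5 kb, for the 85.0% with a span, beside 34.3 kb for all genes entered, of which 83.3% had one. For the 660 higher genes only 79.5% had a span, so the same check is void. Span was not compared within a level of expression.

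In the comparison of 2C cells with oocytes, of 11281 genes entered, 317 (2.81%) were past the fold higher in 2C cells and 3015 (26.7%) lower, and 205 (1.82%) and 150 (1.33%) were higher and lower without overlap. In either direction 29.5% were past the fold and 3.15% were without overlap. With TMM factors 1020 were past the fold higher and 2108 lower. Mean CPM over cells gave 988 higher and 2557 lower, and median CPM over cells 1472 and 2057. On the deposited means more were higher than lower, with 1129 and 896. The balance again depended on Oocyte 4, without which 1232 genes were past the fold higher and 974 lower. Without Oocyte 1 the split was 800 and 4225, and 983 and 703 genes were higher and lower without overlap. The comparison shares its cells with both steps.

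Several regulators were higher in 2C cells than in every oocyte. MX1, an interferon-induced GTPase, had 84.3, 64.1, 26.6 and 79.0 CPM in Oocyte 1 to 4, from 46.9 to 121 CPM in zygotes and from 202 to 292 CPM in 2C cells. Its log2 ratio of 2C over oocytes was 1.66 (1.48 to 1.87), or 1.52 with the P13 cells alone. RIN2, an activator of RAB5, had from 49.9 to 168 CPM in 2C cells, against 11.13 to 38.4 CPM in oocytes (2.62). CDK2, a cyclin-dependent kinase of DNA replication, had from 189 to 387 CPM in 2C cells, against 64.1 to 186 CPM in oocytes (1.46), so that the margin between the stages was narrow.

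YBX2, the germ cell protein that packages maternal RNA, had from 185 to 321 CPM in 2C cells, against 50.9, 96.1, 53.1 and 149 CPM in oocytes (1.11). The let-7 repressor LIN28B (1.73), the MYC partner MAX (1.59), the ERK inhibitor SPRED2 (1.58), ATXN2L (1.54), WIZ (1.48), the calcium channel subunits CACNA2D2 (1.45) and CACNB4 (1.44), the AKT phosphatase PHLPP1 (1.42) and the kinase PKN2 (1.40) completed the named set. For MAX the P13 cells alone gave 0.75, against 1.86 within P1. Without Oocyte 4 the ratios of CACNA2D2, MAX, ATXN2L and YBX2 were 3.30, 2.87, 2.64 and 2.05. FBXW11 (0.76) and TXNRD1 (0.63) were also higher without overlap.

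Among those lower than in every oocyte was INSL6, of the insulin-like family, with 8.35, 64.1, 53.1 and 88.5 CPM in oocytes, from 0 to 9.70 CPM in zygotes and from 0 to 4.68 CPM in 2C cells. It had 7 counts over the 10 2C cells, against 181 over the oocytes, a log2 ratio of -4.80, or -3.02 without Oocyte 4 and -5.39 without Oocyte 1. DPPA2, of the developmental pluripotency-associated genes, had from 7.53 to 23.0 CPM in 2C cells, against 25.9 to 83.3 CPM in oocytes (-1.67). UBB had from 198 to 810 CPM in 2C cells, against 837 to 2152 CPM in oocytes (-0.86, or -0.54 within P1).

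The nuclear receptor NR0B1 (-2.84), the axonemal DNALI1 (-2.79), KLHL10 (-2.77) and SPATA22 (-2.56), known from spermatids and from meiotic recombination in the mouse, C6orf52 (-3.39), UQCC5 (-3.34), BLOC1S2 (-3.08), AK6 (-2.50), CNBD2 (-2.46), ENPP1 (-2.42) and INTS12 (-2.41) completed that set. Without Oocyte 4 the ratios of UQCC5, NR0B1 and SPATA22 were -1.69, -1.55 and -1.34. Those of C6orf52, BLOC1S2, DNALI1, CNBD2, ENPP1 and INTS12 were -2.57, -2.17, -2.01, -1.73, -1.77 and -1.65 without it. Lower without overlap among list members were also PLIN2 (-0.87), PRDX4 (-1.09), PSMB1 (-0.66), RPS3 (-0.96), EIF3D (-1.45), PRPF8 (-1.54) and U2AF1 (-1.50). ZP2, ZP3 and ZP4 had -1.06, -1.49 and -1.09, with overlap: the 206, 170 and 209 CPM of Oocyte 1 lay within the range of the 2C cells.

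**Figure D5:**
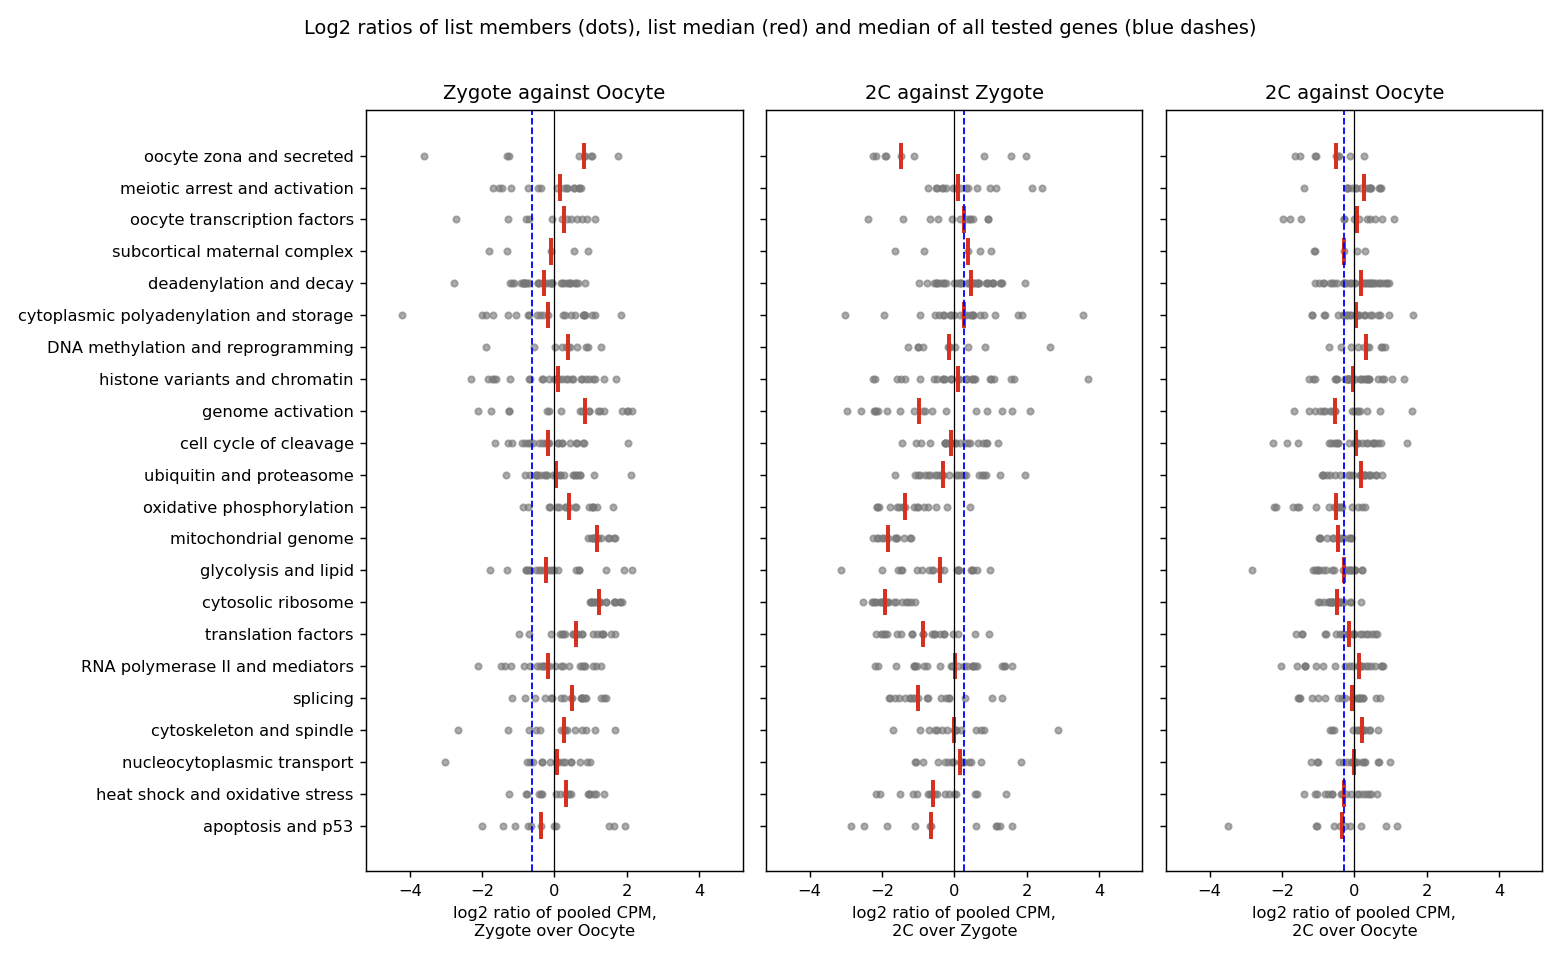
Log2 ratio of pooled CPM for each entered member of 22 gene lists (dots), with the list median (red) and the median of all genes entered (blue dashes), for Zygote over Oocyte, 2C over Zygote and 2C over Oocyte. In the middle panel the lists cytosolic ribosome (-1.92), mitochondrial genome (-1.84), oocyte zona and secreted (-1.48) and oxidative phosphorylation (-1.36) lie farthest below the median of all genes, 0.26.

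Of the remaining lists none had a median past the fold. For 24 entered cell cycle genes the median was -0.09 in 2C cells against zygotes and 0.04 against oocytes, beside 0.26 and -0.30 for all genes. For 17 genes of nucleocytoplasmic transport it was 0.15 and -0.00, and for 15 of the cytoskeleton and spindle -0.02 and 0.21. The apoptosis and p53 list had 4 of 11 entered genes past the fold in each direction against zygotes. Over all genes 23.9% were higher and 14.6% lower there. No member of the apoptosis and p53 list was without overlap there, beside 10.3% of all genes in either direction.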

How the data were processed

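The authors deposited a table of raw counts per gene for 1647 cells and tables of the mean and standard deviation, over the cells of 39 groups, of log2(CPM/10 + 1). Per the submitters' processing notes STAR 2.7.1a, featureCounts 1.6.4, UMI-tools and Sscrofa11.1 were used, in roles that are not given in the sources used here, nor are strand and multi-mapping settings. The count table holds 29306 features, 29214 pig genes and 92 spike-ins. Spike-ins were left out of totals. Of the identifiers 14800 were named by the reference and 758 only by the authors' table, whose rows were matched by their group means.

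Counts were summed over the cells of a stage. The edgeR and DESeq2 tests and a library block planned for stages in 2 libraries were not possible, so edgeR 4.0.16 and DESeq2 1.42.0 in R 4.3.3 gave only scaling factors. Other steps used Python 3.11.15, numpy 2.4.6, pandas 2.3.3, scipy 1.17.1 and matplotlib 3.10.9. The scripts were tested on simulated data. Named were, per direction, the 12 genes without overlap that had the largest ratio, at least 50 CPM and 100 counts in the higher stage (ribosomal and mitochondrial genes not named for size), the 15 most abundant in oocytes, and members of 22 lists with 479 genes, of which those described were picked after their values were seen. Stages and lists were chosen with earlier results of these data known. The alternatives were other pseudocounts, minimums, folds, averages and scalings, the deposited means, library P13 left out or alone, and, added after the data were seen, each Oocyte or Zygote cell left out and list counts without cells that stood apart. A planned minimum of detected genes removed no cell, and sequence features were not analysed here. A few genes that meet these rules are not reported here.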

Additional observations from a re-analysis of the deposited data

Results flagged for a closer look

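Among 36 groups of values examined with Dixon's criterion, 12 measures in each of 3 stages, 3 held a cell far from the others, where chance alone flags about 1 in 20. All 3 were Zygote 5. It had 380692 counts, against 103407 to 206269 in the other 5 zygotes. Its ZP3 level was 252 CPM, against 618 to 797 CPM in the others, and its summed zona and secreted list was 2404 CPM, against 5042 to 6218 CPM. ZP3 belongs to that list, so these flags are not separate, and the measures of a cell are not independent. Cells of 1 library are not independent samples, and no explanation of this cell was tested.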

How the results depend on the processing

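The split between higher and lower genes could move where the total did not, as given above for 2C cells against oocytes. Counts of genes past the fold, with both directions together, stayed within 1.5 times the value given, apart from the following. For zygotes against oocytes there were 8276 with no minimum level, 2173 with a minimum of 50 CPM, 3135 on median CPM, 1297 on the deposited means, 10935 on the spike-in scale and 1727 at a fold of 4. For 2C cells against zygotes there were 6999, 1923, 7799 (spike-in scale) and 914 (fold of 4), and for 2C cells against oocytes 5928, 1198, 2025 (deposited means) and 1065 (fold of 4), the first pair each time with no minimum and with 50 CPM. On the spike-in scale 12, 1640 and 2 genes were without overlap in the 3 comparisons, and with the P13 cells alone 3865 and 2244 in the comparisons of 2C cells with zygotes and with oocytes. Leaving out 1 cell, or the P13 cells, gave 3774 to 6070, 3692 to 4796 and 2206 to 5025 genes past the fold, and 363 to 926, 1117 to 2043 and 512 to 1686 without overlap, counts that go up by construction with fewer cells. For zygotes against oocytes the count without overlap was 750, 926 and 685 without Oocyte 1, 2 and 3 and 512 without Zygote 5. For 2C cells against zygotes it was 2043 without Zygote 5 and 1621 without the P13 cells. For 2C cells against oocytes it was 1686, 538 and 620 without Oocyte 1, 3 and 4 and 930 without the P13 cells. For 2C against oocytes the fold count was 5025 without Oocyte 1 and 2206 without Oocyte 4. Among named genes past the fold, and over the alternatives tried, directions turned round only on the spike-in scale, for zygotes over oocytes in CHAF1A -0.10, CERK -0.10, GRIP2 -0.20, CHD4 -0.24, SRRM2 -0.24, GDF9 -0.76, UHRF1 -0.49, POU5F1 -0.58, STAU1 -0.74, RNF114 -0.71, CDK9 -0.50, POLR2C -0.72, HSPA9 -0.69, and for 2C cells over zygotes in BMP15 0.41, GDF9 0.041, ZAR1L 0.10, TRIM28 0.50, TET3 0.49, CHAF1A 0.15, POU5F1 0.40, PLIN2 0.039, HSPA9 0.48, HSPD1 0.011, EIF4A1 0.045, UCHL1 0.41, U2AF1 0.26; the cause was not tested. Ratios within the fold could also turn round, as that of MOS for zygotes over oocytes did with TMM factors and DESeq2 size factors. Among named genes 615 of 855, 1055 of 1358 and 361 of 615 alternative values kept their direction and stayed within the counting error of the value given. No paired analysis was possible because Oocyte and Zygote lie in 1 library and cells carry no shared number. The planned edgeR and DESeq2 tests and the library block were not run for the same reason. Cell number, depth (1 count is worth up to 26.6 CPM in an oocyte) and the missing second library of 2 stages limit every value.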
